A study of Mus musculus with 4 samples.

Results

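The 8 genes described here are Got1l1 and the 7 nuclear genes whose products form the malate-aspartate shuttle: Got1, Got2, Mdh1, Mdh2, Slc25a11, Slc25a12 and Slc25a13. They were taken by symbol from a table of 55401 genes, and all 8 were found and passed the filter on low counts. Got1l1 was chosen by its measured difference between the same groups, the highest log2 fold change among genes of its level, so that difference is given as a description with no test. The other 7 were taken for their place in the pathway.

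The poly(A) RNA came from R1 cells, a line of mouse embryonic stem cells, and the design compares a Usp28 knockout with its control. Usp28 encodes a deubiquitinase. There were 2 control libraries (CTL, genotype WT) and 2 from the group Usp28 KO, called KO below. Every culture was kept without feeders on gelatin, in N2B27 medium with the MEK inhibitor PD0325901, the GSK3 inhibitor CHIR99021 and LIF, so all values come from inhibitor-treated cells. The labels name neither the number of knockout clones nor whether the 2 libraries of a genotype are separate cultures. The p-values therefore reflect the spread of these 4 libraries alone, which may be technical.

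Reads on the targeted gene did not fall away, so the table does not check the knockout label. Usp28 counts were 3690 and 3120 in control and 3392 and 3319 in KO libraries (log2 fold change -0.11 ± 0.15; edgeR, adjusted p = 0.857). The 4 libraries held 16595196 to 19533608 counts, with 1.92% to 5.65% from mitochondrially encoded genes.

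NADH made by glycolysis cannot cross the inner mitochondrial membrane, and the malate-aspartate shuttle carries its electrons across as malate. In the cytosol MDH1 reduces oxaloacetate to malate, the carrier SLC25A11 takes malate in against 2-oxoglutarate, and MDH2 returns it to oxaloacetate in the matrix. GOT2 converts that oxaloacetate to aspartate, which leaves in exchange for glutamate through SLC25A12 (aralar) or SLC25A13 (citrin), and GOT1 turns it back to oxaloacetate. The aspartate that leaves the mitochondrion is also a building block of nucleotides in dividing cells. Got1l1 is a relative of Got1 known mainly from testis. Its product has been proposed as an aspartate racemase, and its enzyme activity is disputed.

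Got1l1 and Got1 share no long stretch of sequence, which bears on the counting of their reads because Got1 is far more abundant. The read length is not stated. The coding sequences of the longest coding transcripts were identical at 706 of 1182 aligned bases (59.7%), and the longest run they share exactly was 10 bases. Against Got2 the values were 53.6% and 13 bases. Of the 1819 different windows of 50 bases in annotated Got1l1 transcripts, 0 occurred in a transcript of another gene. The most alike ungapped stretch of 60 coding bases within a single exon of each gene, with 44 identical bases in capitals, shows how the mismatches are spread (GENCODE M21 transcripts, GRCm38, both on the minus strand, Got1l1 at chr8:27199275-27199334 and Got1 at chr19:43504784-43504843):
Got1l1: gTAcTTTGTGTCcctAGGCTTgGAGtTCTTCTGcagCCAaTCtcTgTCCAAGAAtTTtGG
Got1: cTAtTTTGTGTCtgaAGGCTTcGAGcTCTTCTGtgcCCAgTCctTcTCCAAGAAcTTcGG

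Got1l1 was low in control libraries and about 4 times higher in KO libraries. The gene (ENSMUSG00000039720, mm10 chromosome 8, 27197459 to 27223828, minus strand) was read 62 times in control replicate 1 and 64 times in control replicate 2. The KO counts were 295 for replicate 1 and 230 for replicate 2. Exact 95% Poisson intervals, which cover counting error only, ran from 47.5 to 81.7 counts over the control libraries and from 201 to 331 over the others. As library-scaled counts (CPM, counts scaled to a common library size with TMM factors, trimmed means of M values), the libraries stood at 3.17 and 4.04 CPM in control and at 15.8 and 12.3 CPM in KO. Both KO libraries lay well above both control libraries. Group means were 3.60 ± 0.610 and 14.03 ± 2.48 CPM (SD, n = 2 each), a ratio of 3.89 and a log2 fold change of 1.96 ± 0.27 (SE). In bulk RNA, more cells with the transcript and more transcript per cell cannot be told apart.

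Among 10704 tested genes averaging at least 5 CPM, Got1l1 had the highest log2 fold change. Its control mean of 3.60 CPM was below that cut, which it met through the KO libraries alone. Got1l1 also ranked highest among the 72 genes at that level that were higher in KO by DESeq2 at an adjusted p under 0.05. That call was made for 0.578% of genes, and nothing is read from it here. This ranking brought it into the set. By edgeR 0.0% of genes passed, so Got1l1 was not called there. The log2 fold change kept its direction when any library was left out, from 1.77 without KO replicate 1 to 2.13 without control replicate 2. These fits reuse the libraries on which Got1l1 was chosen, so the range is no test of the difference.

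**Figure D1:**
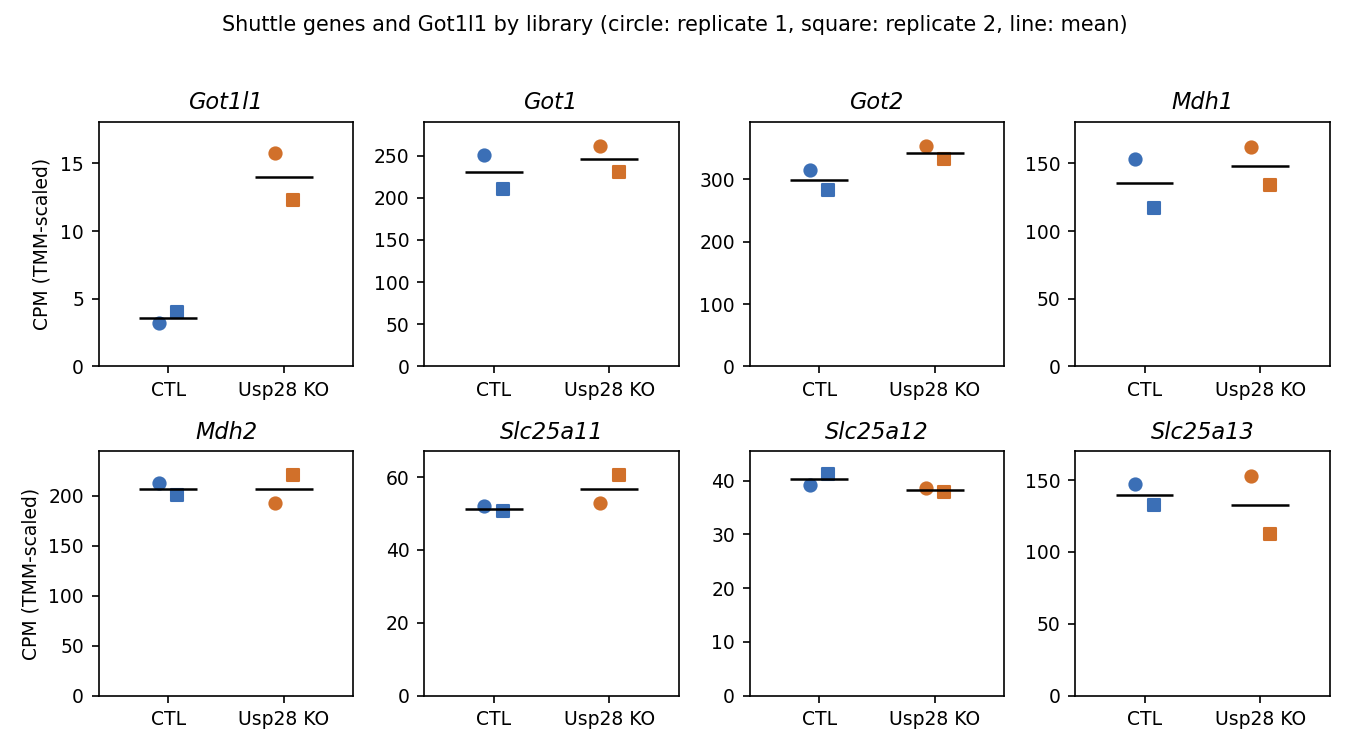
Expression of Got1l1 and the 7 shuttle genes in each library, in CPM after TMM scaling on axes that start at 0; points are libraries and lines are the means of 2 libraries. Got1l1 stands at 3.17 and 4.04 CPM in control and at 15.8 and 12.3 CPM in KO libraries, and the other genes differ far less.

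The deposited table gives 1 count per gene, so the part of the Got1l1 gene that gave the reads is not known. In all, GENCODE M21 lists 5 transcripts of Got1l1. The main coding transcript, with 9 exons and a coding sequence of 1212 bases, spans 27197459 to 27202547. A pair of short transcripts instead starts at 27223828, far upstream, 1 with 91 coding bases and the other noncoding. No other gene of the table overlaps the Got1l1 span, on either strand.

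No tested gene around Got1l1 passed in the main edgeR fit or by DESeq2. Of 31 other genes within 500 kb, 15 had no read and 9 were tested. None of the 9 passed at an adjusted p under 0.05 by edgeR's quasi-likelihood test, and none by DESeq2, where 0.0% and 0.929% of all genes passed. Adrb3, the beta-3 adrenergic receptor gene, lies 1.95 kb upstream of the Got1l1 span. That gap is measured to the start of the short transcripts at 27223828, while the main coding transcript starts at 27202547. Adrb3 stood at 34.1 and 26.99 CPM in control and 34.1 and 31.4 CPM in KO libraries (log2 fold change 0.10 ± 0.19). It overlaps Gm45470 on the other strand, so reads there may belong to either gene. Rab11fip1, a Rab11 effector gene 22.8 kb away on the other side, had a log2 fold change of 0.17 ± 0.18. The nearest to Got1l1 in size of difference, named after its value was seen, was Adgra2, an adhesion G protein-coupled receptor gene. Its libraries stood at 0.921 and 2.90 CPM in control and 3.05 and 7.04 CPM in KO, which differ by 1.43 ± 0.54 on the log2 scale (edgeR, adjusted p = 0.355). KO replicate 2 was the highest of the 4 and the other KO library was close to control replicate 2. Its call rests on single libraries. Adgra2 passed without control replicate 2 (2.44; edgeR, adjusted p = 0.00138), where 1.01% of genes did, and without KO replicate 1 (1.91; edgeR, adjusted p = 0.00311), where 0.884% did. Without KO replicate 2 it was 0.70 and did not pass. It also passed without the filter on low counts (edgeR, adjusted p = 0.0134), where 1.19% of genes did.

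**Figure D2:**
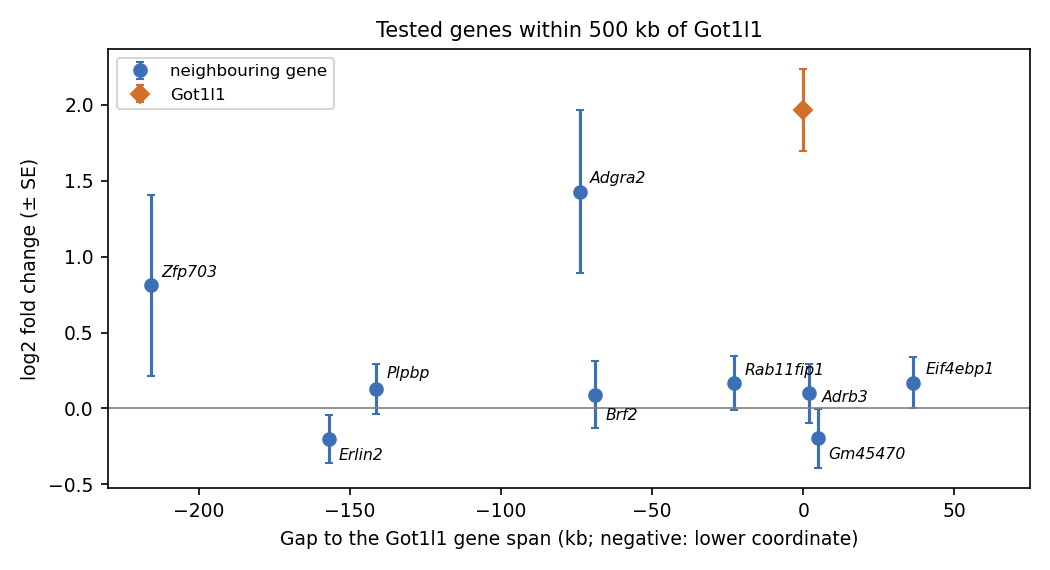
Log2 fold change (KO minus control, bars are SE) of the 9 tested genes within 500 kb of Got1l1, against the gap in kb between each gene's span and that of Got1l1. Got1l1 is at 1.96, Adgra2 at 1.43 with a wide error, and Adrb3 and Rab11fip1, the nearest on each side, at 0.10 and 0.17.

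Stem cell markers were abundant, and the markers of late spermatogenic cells had few reads or none. All 8 stem cell markers had reads in every library and summed to 5135 to 5171 CPM in control and 4681 to 4763 CPM in KO libraries. Of 10 spermatogenic markers, 3 had reads in every library, namely Sycp3, Ddx4 and Dazl. The protamine genes Prm1 and Prm2 and the transition protein gene Tnp1 had none. Tnp2, Acrv1, Tex101 and Ldhc had at most 4 counts in a library. The 10 spermatogenic markers summed to 19.7 and 32.5 CPM in control and 31.9 and 30.6 CPM in KO libraries. Ddx4 had the highest mean of them, 13.5 CPM over the 4 libraries. The sum in control replicate 2 was as high as in the KO libraries. Fibroblast markers summed to at most 1.07 CPM, with Postn, Dcn and Lum at 0. Primitive endoderm markers summed to 8.32 to 12.5 CPM with Afp at 0, trophoblast markers to 137 to 180 CPM, mostly Tfap2c, and neural markers to 81.3 to 120.03 CPM with Neurog2 and Dcx at 0. Their part in the Got1l1 difference was not tested.

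Neither canonical aminotransferase gene passed by edgeR, where 0.0% of all genes did. Got1, whose product is the cytosolic enzyme, stood at 250.5 and 211 CPM in control and 261 and 231 CPM in KO libraries. The groups overlapped, with control replicate 2 the lowest. Its log2 fold change was 0.092 ± 0.17, with a 95% interval from -0.27 to 0.45 (edgeR, adjusted p = 0.892). Got2, for the mitochondrial enzyme, stood at 315 and 283 CPM in control and 353 and 332 CPM in KO libraries. Here both KO libraries were above both control libraries, but the interval of the difference covered 0: the log2 fold change was 0.20 ± 0.16, with an interval from -0.15 to 0.55 (edgeR, adjusted p = 0.702). Transcripts of Got2 share 801 of 4773 windows of 50 bases (16.8%) with the pseudogene Got2-ps1, which had only 20, 6, 8 and 11 counts in control replicates 1 and 2 and KO replicates 1 and 2.

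Neither malate dehydrogenase gene passed by edgeR, beside 0.0% of all genes. Mdh1, for the cytosolic enzyme, stood at 154 and 117 CPM in control and 162 and 134 CPM in KO libraries. In each group replicate 1 was the higher library, and the groups overlapped (log2 fold change 0.13 ± 0.18, interval -0.26 to 0.52; edgeR, adjusted p = 0.844). Mdh2, for the matrix enzyme, stood at 213 and 201 CPM in control and 193 and 221 CPM in KO libraries. The control libraries lay between the KO libraries, and the log2 fold change was 0.0019 ± 0.16 (interval -0.34 to 0.35; edgeR, adjusted p = 0.999).

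None of the 3 carrier genes passed by edgeR, beside 0.0% of all genes. Slc25a11, the 2-oxoglutarate/malate carrier gene, stood at 52.1 and 50.6 CPM in control and 52.9 and 60.5 CPM in KO libraries (log2 fold change 0.14 ± 0.17, interval -0.22 to 0.51; edgeR, adjusted p = 0.813). Only KO replicate 2 was clearly higher. The gene shares 189 of its 2120 exon bases with Rnf167 on the other strand, and without a stated strand setting reads there cannot be told apart. Slc25a12 stood at 39.3 and 41.2 CPM in control and 38.6 and 37.98 CPM in KO libraries, the narrowest spread of the 8 genes (log2 fold change -0.070 ± 0.17, interval -0.45 to 0.31; edgeR, adjusted p = 0.928). Slc25a13 stood at 147 and 132 CPM in control and 153 and 112 CPM in KO libraries. The highest and the lowest of its values were both KO libraries, and its log2 fold change was -0.077 ± 0.18 (interval -0.46 to 0.31; edgeR, adjusted p = 0.922).

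As a group, 0 of the 7 shuttle genes passed by edgeR and 0 by DESeq2, and 0 were under an unadjusted p of 0.05 by either. Over all genes the share was 0.0% by edgeR and 0.929% by DESeq2. At an unadjusted p under 0.05 it was 11.2% by edgeR and 4.53% by DESeq2. Their median log2 fold change was 0.092, beside -0.0040 for all 15341 tested genes, with 5 above and 2 below 0. The groups did not overlap for 3 of the 7, Got2 and Slc25a11 with KO above and Slc25a12 below, beside 41.8% of all tested genes. A missed threshold does not show equal expression. The farthest ends of the 95% intervals, which are not adjusted for their number, were a ratio of 1.46 upward, for Got2, and 0.725 downward, for Slc25a13.

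**Figure D3:**
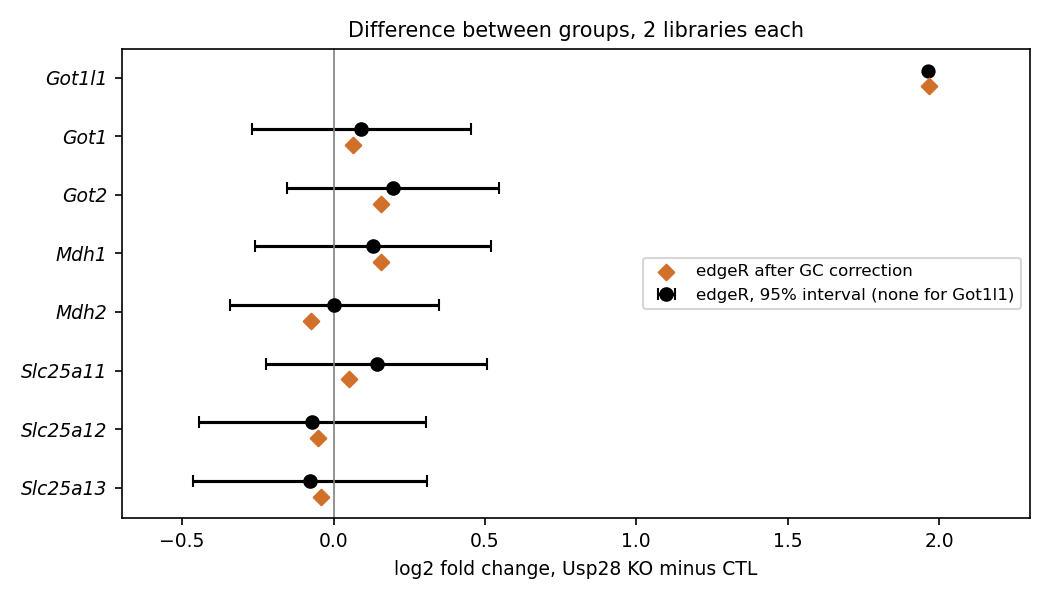
Log2 fold change of each gene, KO minus control, from 2 libraries per group; circles are edgeR estimates with 95% intervals for the 7 shuttle genes and diamonds are estimates after correction for GC content. All 7 intervals cover 0, and Got1l1, drawn without an interval, is at 1.96.

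Libraries differed in how expression followed the GC content of transcripts, so each value was also computed with that trend removed. Across 10693 genes, which are not independent replicates, the rank correlation of a library's expression, relative to the other libraries, with GC content was 0.057 and -0.46 for control replicates 1 and 2 and 0.015 and 0.46 for KO replicates 1 and 2. Annotated Got1l1 transcripts have 50.5% GC, and the corrected log2 fold change was 1.97. The shuttle genes, at 46.3% to 55.5% GC, had a corrected median of 0.052. Slc25a11, the richest in GC, went from 0.14 to 0.052, and Mdh2 from 0.0019 to -0.074. Mdh2 is the second richest.

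Levels can be compared between genes only per length. In TPM (counts divided by exon length and scaled to a fixed sum within each library), Got1 was highest at 316 ± 38.9 TPM (SD over 4 libraries), followed by Got2 at 224 ± 27.6, Mdh2 at 195 ± 13.9 and Mdh1 at 179 ± 30.6. Slc25a13 at 121 ± 17.6 and Slc25a11 at 85.7 ± 8.69 TPM came next. The ranges of Mdh2 and Mdh1 overlapped in each group at the deposited lengths. Those of Got2 and Mdh2 overlapped in control but not in KO, where Got2 was the higher. Slc25a12 was far lower at 17.96 ± 0.257 TPM. The deposited exon length is 2539 bases for Got1, 4824 for Got2, 3562 for Mdh2 and 2662 for Mdh1. Their longest coding transcripts have 2058, 2530, 1456 and 2122 bases. GENCODE M21 also lists transcripts with retained introns, among them a Got2 transcript of 2057 bases. The order of Got1, Got2, Mdh2 and Mdh1, and the overlap of the last pair, therefore rest on the length used. No other length was tried.

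Got1l1 held a different place in that order in each group. At 5.88 and 7.08 TPM it was below Slc25a12 in the control libraries, and at 29.99 and 22.9 TPM above it in the KO libraries. Even there it was a minor transcript, since Got1 had 46.2 times its mean TPM in control and 12.6 times in KO libraries. Got1l1 made up 1.05% and 1.54% of the summed TPM of Got1l1, Got1 and Got2 in control, and 4.69% and 4.05% in KO libraries. This share is taken within a library and does not depend on how libraries were scaled.

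**Figure D4:**
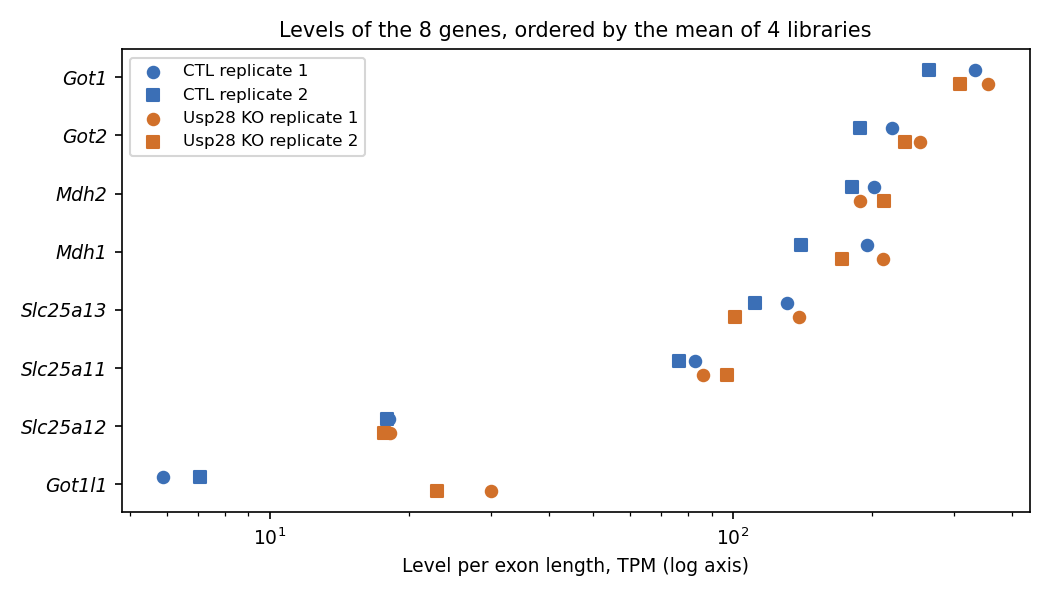
Levels per exon length of the 8 genes, in TPM on a log axis, for each of the 4 libraries (colours are groups, marker shapes are replicate numbers). Got1 is highest at a mean of 316 TPM, Slc25a12 stays near 17.96 TPM, and Got1l1 lies below it in control and above it in KO libraries.

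Within the pairs of related genes the balance differed by little more than the spread, or by less. Got1 took 60.2% and 58.6% of the summed TPM of Got1 and Got2 in control and 58.4% and 56.9% in KO libraries. These ranges leave a narrow gap. On raw counts the Got1 share was 44.3% and 42.6% in control and 42.5% and 40.95% in KO libraries. Which gene of this pair is the larger thus depends on the length used. Mdh1 took 49.1% and 43.7% of Mdh1 and Mdh2 in control and 52.8% and 44.8% in KO libraries. Replicates of a group differed more than the groups. On raw counts the Mdh1 share was 41.9% and 36.8% in control and 45.6% and 37.8% in KO libraries. The balance of this pair thus also depends on the length used. The share of Slc25a12 in the aspartate/glutamate carriers was 12.1% and 13.9% in control and 11.6% and 14.9% in KO libraries, again with replicates further apart than groups. These shares were not tested, since the smallest p that a two-sided exact permutation test of 2 libraries against 2 can give is 0.333.

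The carrier pair is shown with its upstream sequence because these genes encode carriers of the same exchange and yet stood far apart per length, with 6.72 times more Slc25a13 than Slc25a12. Their coding sequences were 71.9% identical over 2012 aligned bases, with a longest shared run of 21 bases. The 250 bases before each RefSeq start (GRCm38.p6, minus strand, Slc25a12 at chr2:71367756-71368005 and Slc25a13 at chr6:6217174-6217423) are printed with matches to the motifs below in capitals:
Slc25a12: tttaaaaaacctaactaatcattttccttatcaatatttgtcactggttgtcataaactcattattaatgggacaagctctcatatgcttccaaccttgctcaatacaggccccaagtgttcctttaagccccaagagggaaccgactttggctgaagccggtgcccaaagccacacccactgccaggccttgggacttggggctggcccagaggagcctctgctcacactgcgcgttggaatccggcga
Slc25a13: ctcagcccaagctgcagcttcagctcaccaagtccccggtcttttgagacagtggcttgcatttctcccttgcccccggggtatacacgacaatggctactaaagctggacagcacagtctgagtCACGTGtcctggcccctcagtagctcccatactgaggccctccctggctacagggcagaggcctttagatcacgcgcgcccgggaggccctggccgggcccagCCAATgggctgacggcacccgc

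RefSeq promoters (250 bases before to 50 after the start) were found for 7 of the 8 genes, all but Got1l1, and searched on both strands, with motifs chosen after the sequences were seen. The E-box CACGTG, bound by MYC and MAX, was in the window of 1 gene, Slc25a13, and in 7.15% of all 32851 promoters. ACGTG, the core of the hypoxia response element, which lies within that E-box too, was in those of Mdh1 and Slc25a13 and in 19.6% of all. CCAAT was in 4 (Got1, Mdh1, Slc25a11 and Slc25a13), beside 37.4%. The cyclic AMP response element TGACGTCA was in 1, Mdh2, and in 1.79% of all. TCAAGGTCA, a motif of ESRRB, was in 0 of the 7 and in 0.423% of all. These matches describe letters in a window and not binding.

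Genes of neighbouring reactions were then read from 6 lists, and 0 of their members passed by edgeR, against the background of 0.0%. With the replicate number as a block, which the labels do not tie to a shared batch, 11.0% of all genes passed, and 16.8% with GC correction added. The glycerol-3-phosphate shuttle is the other route for cytosolic NADH. Its 3 genes had log2 fold changes of 0.60 ± 0.36 for the cytosolic dehydrogenase gene Gpd1, -0.078 ± 0.19 for its relative Gpd1l and -0.013 ± 0.16 for the mitochondrial enzyme gene Gpd2. Gpd1 was a low transcript, at 1.69 and 1.83 CPM in control and 2.51 and 2.83 CPM in KO libraries.

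Of the malate, pyruvate and lactate partners 9 of 11 were tested, with a median log2 fold change of 0.29 beside -0.0040 for all tested genes. Of the 9, 8 were above 0 and the groups did not overlap for 6 with KO above and for 1 below. Over all genes 21.4% did not overlap with KO above and 20.4% with KO below. Ldhb, a lactate dehydrogenase subunit gene, stood at 417 and 570 CPM in control and 586 and 746 CPM in KO libraries (0.43 ± 0.20; edgeR, adjusted p = 0.444). With a library left out, the Ldhb value ran from 0.22 without control replicate 1 to 0.67 without control replicate 2. Ldha, for the other main subunit, stood at 1112 and 1205 CPM in control and 1439 and 1395 CPM in KO (0.29 ± 0.17; edgeR, adjusted p = 0.577). Pcx, which encodes pyruvate carboxylase, the enzyme that makes oxaloacetate from pyruvate, had a value of 0.38 ± 0.21 and 0.25 after GC correction, and was 0.076 without KO replicate 2.

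All 16 genes of the TCA cycle were tested, with a median of 0.056 and 12 above 0. For 3 the KO libraries lay above control, beside 21.4% of all tested genes. Without KO replicate 1 that median was 0.017, without control replicate 1 it was 0.15, and after GC correction it was 0.10. Suclg2, a succinyl-CoA ligase subunit gene, stood at 59.1 and 59.97 CPM in control and 90.9 and 69.8 CPM in KO libraries (0.43 ± 0.18; edgeR, adjusted p = 0.381). KO replicate 1 was the highest, and the Suclg2 value was 0.23 without it and 0.61 without KO replicate 2. The succinate dehydrogenase subunit genes Sdhb and Sdhd had log2 fold changes of 0.27 ± 0.16 and 0.26 ± 0.18. Citrate synthase, Cs, which uses the same oxaloacetate as GOT2, was at 0.018 ± 0.16, a value named after it was seen.

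For aspartate and glutamate metabolism 18 of 20 genes were tested, with a median of 0.056 and 13 above 0. The groups did not overlap for 4 with KO above and 2 below, beside 21.4% and 20.4% of all tested genes. The largest difference was in Adssl1, which encodes the muscle-type adenylosuccinate synthase that joins aspartate to IMP. It stood at 0.665 and 0.883 CPM in control and 2.67 and 2.99 CPM in KO libraries, and its log2 difference of 1.87 ± 0.42 did not pass (edgeR, adjusted p = 0.115). Without the filter on low counts Adssl1 passed (edgeR, adjusted p = 0.00844), where 1.19% of genes did. Psat1, for the phosphoserine aminotransferase of serine synthesis, was at 0.33 ± 0.16, and Nat8l, for the enzyme that acetylates aspartate, at 0.75 ± 0.37 with overlapping groups, from 0.32 without control replicate 2 to 1.38 without control replicate 1.

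Other mitochondrial carriers had a median of 0.029 over 9 of 10 genes, whose sign was not stable. It was -0.099 after GC correction, -0.047 without control replicate 2 and 0.13 without control replicate 1. The citrate carrier gene Slc25a1 was at 0.28 ± 0.16, Slc25a39, for a glutathione carrier, at 0.25 ± 0.16 and Slc25a44, for a branched-chain amino acid carrier, at -0.25 ± 0.20. After GC correction Slc25a1 and Slc25a39 came to 0.13 and 0.10.

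Testis-biased isoenzymes of energy metabolism were mostly at or near 0 counts. Of the 14 genes that were found, 5 passed the filter, and 9 did not, among them, named after their counts were seen, Ldhc (0, 2, 2 and 4 counts in control replicates 1 and 2 and KO replicates 1 and 2), Pgk2 with no read, and Mdh1b, a relative of Mdh1 (6, 4, 4 and 9 counts). Apart from Got1l1, the 4 tested genes had a median of 0.37. Cyct, the testis cytochrome c gene, stood at 1.996 and 2.52 CPM in control and 3.74 and 3.68 CPM in KO libraries (0.72 ± 0.33; edgeR, adjusted p = 0.450). Cox6b2, for a testis cytochrome oxidase subunit, stood at 53.5 and 28.4 CPM in control and 74.95 and 40.4 CPM in KO libraries (0.49 ± 0.37). In each group its replicate 1 was far above its replicate 2, and the groups overlapped. Single libraries decide its value: Cox6b2 was at 1.02 without control replicate 1 (edgeR, adjusted p = 0.0251), where 0.891% of genes passed, at 0.86 without KO replicate 2 (edgeR, adjusted p = 0.0131), where 2.16% did, and at -0.023 without KO replicate 1.

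**Figure D5:**
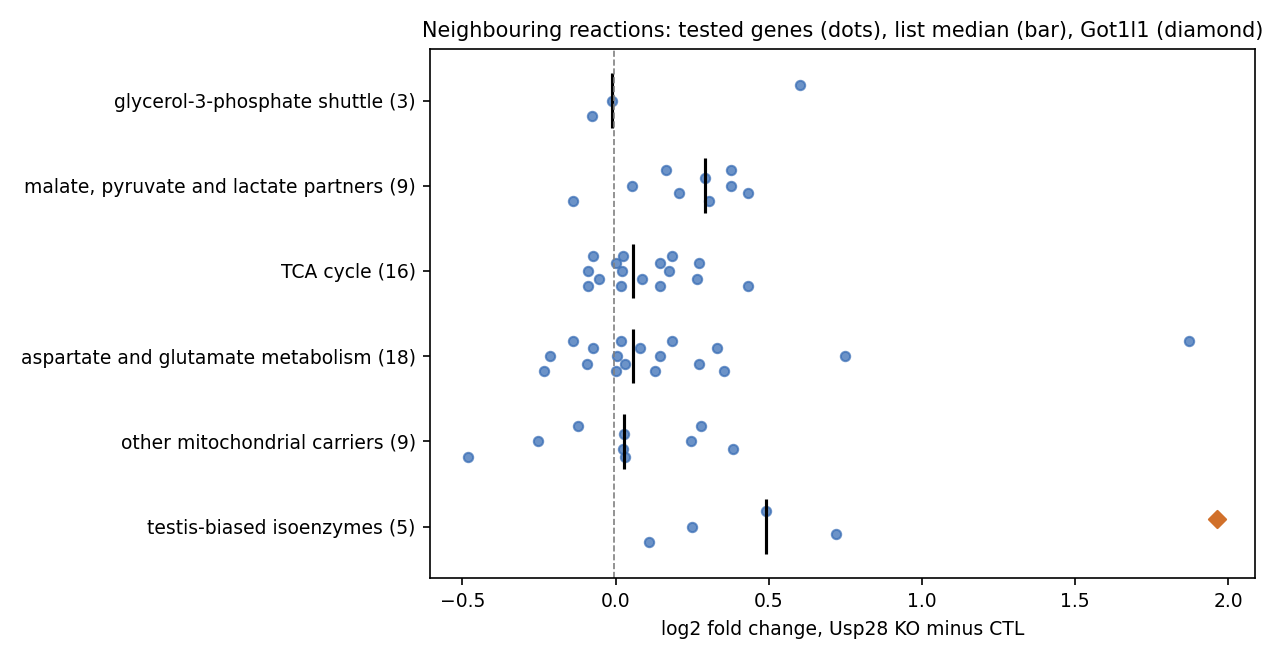
Log2 fold change, KO minus control, of each tested gene in 6 lists of neighbouring reactions (number tested in brackets); bars are list medians and the dashed line is the median of all tested genes. The malate, pyruvate and lactate list has a median of 0.29, most other dots lie near 0, the dot at 1.87 is Adssl1 and the diamond is Got1l1.

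The genes whose pattern over the 4 libraries was most like that of Got1l1 were Dppa3, Pacsin1, Cldn7, Kif1a and Tspan7, with a root mean square difference of 0.20, 0.22, 0.22, 0.23 and 0.24 between centred log2 CPM values, against a median of 1.00 over 10703 genes. Dppa3, a maternal-effect gene that is also active in naive stem cells, was the closest, at 3.69 and 6.37 CPM in control and 17.4 and 13.98 CPM in KO libraries. Pacsin1, a gene of endocytosis in neurons, stood at 2.66 and 2.33 CPM in control and 8.93 and 8.21 CPM in KO. The 5 genes were picked for likeness in the same 4 libraries, so their differences are no test. Only genes averaging at least 5 CPM were compared. Pacsin1, Cldn7 and Kif1a, with control means of 2.50, 3.13 and 3.20 CPM, met that cut through the KO libraries alone.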

How the data were processed

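The authors deposited raw read counts per gene for the 4 libraries with each gene's exon length. Per the submitters' processing notes, HISAT2, featureCounts, DESeq2 and the mm10 build were used. Their versions, the annotation release, the strand setting and the handling of multi-mapping reads: not given in the sources used here. Symbols came from GENCODE M21 (55141 of 55401 identifiers matched).

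In R 4.3.3, edgeR 4.0.16 kept 15341 genes by filterByExpr (minimum count 10, minimum total 15), scaled libraries by TMM and compared the groups by a robust quasi-likelihood fit, with Benjamini-Hochberg adjustment over all genes and a threshold of 0.05. TPM used the deposited exon length. Intervals are 95%. DESeq2 1.42.0 and limma 3.58.1 (voom) were alternatives, beside other scalings and filters, a replicate block, GC correction (natural spline, 5 degrees of freedom) and leaving out each library. Steps were tested on simulated data, where the share of false calls was somewhat above the nominal level for edgeR, DESeq2 and limma-voom alike. Depth was 16595196 to 19533608 counts per library, so genes with few counts are imprecise.

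The members and lists were chosen with earlier results of these data known. Genes named were the 8 members, up to 3 genes per list by smallest p, the nearest tested gene on each side of Got1l1, and the 5 genes most like it (log2 CPM with a prior count of 2, at least 5 CPM). Exceptions are marked. Of the 15 testis-biased symbols, 1 was not matched.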

Additional observations from a re-analysis of the deposited data

How the results depend on the processing

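The Got1l1 log2 fold change stayed between 1.77 and 2.13 over 14 alternatives, which reuse the libraries it was chosen on and are no test of it. In the alternatives with 2 libraries per group 0 of the 7 shuttle genes passed. Beside this, 0.929% of all genes passed by DESeq2, 1.19% without a filter, 11.0% with a replicate block and 16.8% with GC correction added. The median of the 7 ran from -0.045 to 0.16 with a library left out. Signs of values near 0 did turn: Mdh2 was -0.0054 by DESeq2, -0.00072 by limma-voom, -0.0027 with DESeq2 size factors, -0.00085 with a replicate block, -0.074 after GC correction and -0.075 with GC correction and block, and it ran from -0.10 to 0.094 with a library left out. Got1 ran from -0.037 to 0.22, Mdh1 from -0.063 to 0.34 and Slc25a13 from -0.31 to 0.12 in those fits. The cause was not tested.

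Counts over all genes (0 higher and 0 lower by edgeR, with 1718 under an unadjusted p of 0.05) were 79 and 48 by DESeq2, 18 and 3 with upper-quartile scaling, 24 and 5 with library totals, 204 and 118 without a filter, and 49 to 146 higher and 31 to 200 lower with a library left out. With the replicate number as a block they were 965 and 716, and 1275 and 1302 with GC correction added. Deviations of same-numbered libraries correlated at 0.35 across genes, but the labels do not say that a number marks a shared batch.

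With the block, where 11.0% of all genes passed, 1 of 9 malate, pyruvate and lactate genes (Ldhb), 1 of 16 TCA cycle genes (Suclg2) and 2 of 18 aspartate and glutamate genes (Adssl1 and Nat8l) passed. With GC correction added, where 16.8% passed, the counts were 3, 3 and 3, so the TCA cycle and aspartate and glutamate lists were near the background. Adssl1 also passed without a filter (1 gene). Got1l1 was not tested. Among the other 4 testis-biased genes, 1 (Cox6b2) passed with the block and 2 (Cox6b2 and Cyct) with GC correction added. Adgra2 passed in both fits with the block. With a library left out, medians ran from -0.12 to 0.079 for the glycerol-3-phosphate shuttle. The testis-biased median with Got1l1 included, 0.49, was 0.74 under the filter of 50 counts in 2 libraries, where fewer genes were tested, 0.42 with GC correction and block, and 0.14 to 0.73 with a library left out. The aspartate and glutamate median was 0.11 with upper-quartile scaling, 0.12 with library totals, 0.030 after GC correction, 0.027 with the block added, and 0.034 to 0.11 with a library left out. On raw counts the Got1l1 share differed by 1.64 points in place of 3.07. As TMM-scaled RPKM the log2 ratio of Slc25a12 means was -0.070 in place of -0.0066 as TPM.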
